A study of Homo sapiens with 12 samples.

Results

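The comparison set ribosome footprints against RNA within the optimal firefly reporter, in 6 of the 12 libraries of the series. The members are the 3 Ribo-seq and the 3 RNA-seq libraries whose labels name the optimal reporter, matched by number, and 6 further libraries carry the nonoptimal one. All cells were HEK293T, a widely used line derived from human embryonic kidney and easy to transfect, with genotype WT per the labels. Every culture received a firefly plasmid and a Renilla plasmid by lipofection 24 hours before harvest and a brief cycloheximide treatment before lysis. The groups are Ribo-seq and RNA-seq of cells with SM-opt FLuc-GFP, and the same assays of cells with SM-nonopt FLuc-GFP. The labels give total RNA for the RNA-seq and polyA RNA for the Ribo-seq libraries. These entries were not checked against the files, and any effect of how the RNA was selected on its recovery along the frame was not tested. The reporters were expressed from transfected plasmids, so they are a model of an introduced and not of an endogenous gene.

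Ribo-seq digests the RNA between ribosomes and sequences the fragments that ribosomes shielded, so the number of footprints on a stretch of mRNA reflects how many ribosomes stood there. A stretch where ribosomes spend more time, or that more ribosomes reach, gives more footprints from the same amount of RNA. RNA-seq of the same cells shows how evenly the RNA itself was recovered, which is the background against which footprints along a reading frame are read. Synonymous codons differ in how fast they are decoded, and codons called optimal are commonly those decoded faster.

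On the deposited plasmid map the optimal reading frame ran from position 2627 to 6008 and held 1127 whole codons. SM, the segment before the luciferase, spanned codons 1 to 337. FLuc, the recoded firefly luciferase that oxidises luciferin with the release of light, spanned codons 338 to 886. GFP, the green fluorescent protein, spanned codons 887 to 1127. The positions are those of the plasmid map and have no place in a human genome build. The frame was cut into 57 windows of 20 codons, the last one shorter, of which 16 lay within SM, 27 within FLuc, 12 within GFP and 2 across a boundary. Each value is the share of a library's reading-frame alignments that had their midpoint in a window, so that no scaling between libraries was needed.

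Footprints were counted on the sense strand at 27 to 30 nt. The reading frame held 687, 785 and 570 such footprints in replicates 1, 2 and 3, and 34346, 34371 and 20711 RNA-seq alignments in the RNA-seq libraries with the same numbers. The footprints are the scarcer side and set the precision. The 5′ ends of 77.5% ± 2.49 (SD, n = 3) of them fell on the same base of a codon, which is the second as the map is read here, with 74.7%, 79.1% and 78.8% in the replicates. The same base held between 71.9% and 85.2% of footprints in each of SM, FLuc and GFP of each library. RNA-seq alignments of the transcript strand, the background, started there in 32.7% ± 0.180 (SD, n = 3) of cases. The deposited list gives the frame 1 nt more than whole codons. It was read as counted from 1, under which SM and FLuc are whole codons and neighbouring regions abut. Were its starts counted from 0, the frame would be whole codons and the same ends would fall on the first base. The start of the frame and both printed positions of each window and codon would then lie 1 nt later. The footprints kept 1 register through all 3 segments, and the RNA ends did not favour that base. Read names of all 12 libraries carried 1 run and lane, and nothing in the labels says whether the replicates came from separate cultures, so p-values measure the spread between these samples, which may be technical.

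Footprints were distributed far less evenly along the optimal frame than RNA. The unevenness was measured as the coefficient of variation over whole windows after removal of the part that counting alone gives. It was 0.702, 0.724 and 0.743 in the footprints and 0.269, 0.274 and 0.296 in the RNA of replicates 1, 2 and 3. The lowest footprint library lay far above the highest RNA library. The footprint value was 2.59-fold the RNA value, a log2 difference of 1.37 (SE 0.022), and it was higher in 3 of 3 pairs. The exact paired permutation test, two-sided, gave p = 0.25, which is the smallest that 3 pairs allow, and an adjusted p of 0.42 over the 10 single-value comparisons. No comparison of this kind could therefore pass 0.05, and the sizes and their spread carry the information. RNA-seq alignments were 151 nt long, which is longer than a window of 60 nt. With each footprint spread over 151 nt the unevenness was 0.404 in footprints and 0.189 in RNA, a log2 difference of 1.09.

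The concentration in few windows shows the same in counts. The 10 fullest whole windows of each library held 41.2% ± 0.264 (SD, n = 3) of the footprints and 25.4% ± 0.616 (SD, n = 3) of the RNA alignments. A total of 13 or 14 windows was enough for 50% of the footprints of a library, against 22 to 23 windows for RNA. At single codons, with a footprint placed 12 nt after its 5′ end, 52.9% of the 1127 codons carried no footprint in any of the 3 libraries. At this depth an empty codon is not a codon without ribosomes. In RNA the whole windows ranged from 0.850% ± 0.106 (SD, n = 3) of alignments at codons 61 to 80 of SM to 3.14% ± 0.189 (SD, n = 3) at codons 1061 to 1080 of GFP. In footprints they ranged from 0.208% ± 0.124 (SD, n = 3) at codons 921 to 940 of GFP to 4.63% ± 1.18 (SD, n = 3) at codons 101 to 120 of SM.

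**Figure D1:**
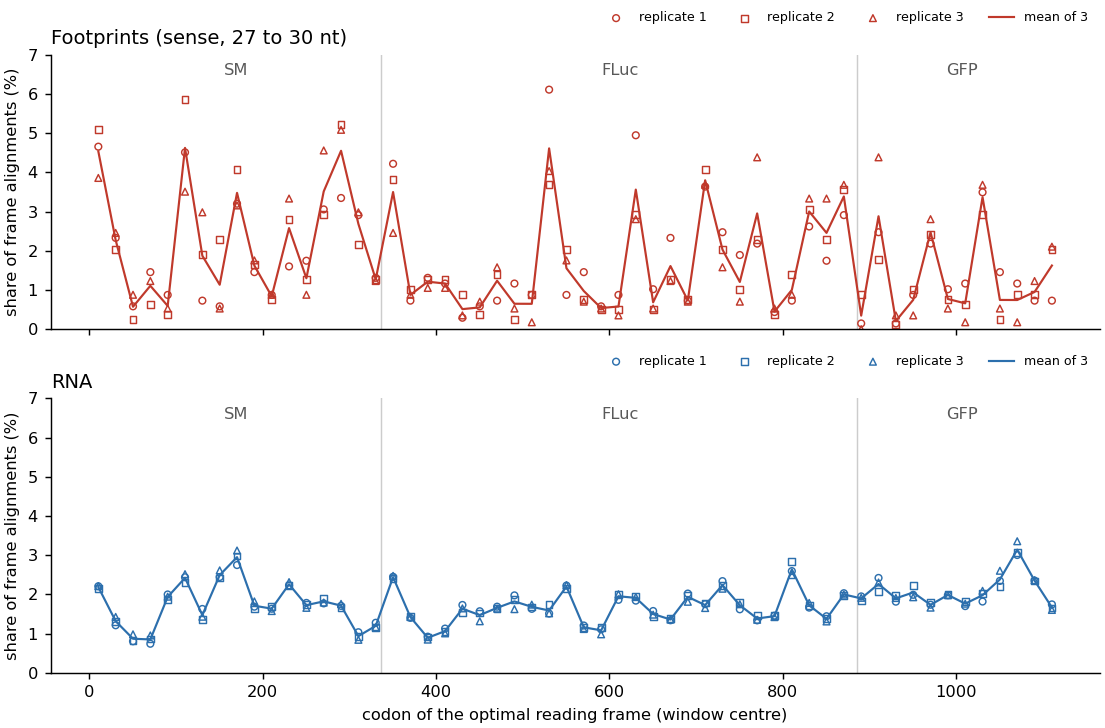
Share of reading-frame alignments (%) in each whole window of 20 codons along the optimal frame, footprints above and RNA below, with a symbol for each replicate and a line through the mean of 3. The footprint peaks at codons 281 to 300, 521 to 540 and 701 to 720 recur in all 3 replicates, up to 6.11% of a library. Other windows vary, as codons 141 to 160 with 0.582%, 2.29% and 0.526% in replicates 1, 2 and 3. RNA stays between 0.740% and 3.36%.

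The window profile recurred between replicates. Over the 56 whole windows the log2 footprint shares of any pair of libraries correlated with r between 0.73 and 0.76, and the log2 RNA shares with r between 0.95 and 0.97. Footprint and RNA shares of the same number correlated with r between -0.0078 and 0.25. These are descriptions across windows of the same frame, which share a library and a transcript and are not independent replicates. The footprint profile was thus far more like that of another footprint library than like that of its own RNA.

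On average, footprints were placed earlier in the frame than RNA. SM held 34.9%, 40.4% and 39.8% of the footprints of replicates 1, 2 and 3, against 29.2%, 28.8% and 29.9% of the RNA alignments. Every footprint library lay above every RNA library. The footprint share of SM was 1.31-fold the RNA share, a log2 ratio of 0.39 (SE 0.067), higher in 3 of 3 pairs (exact paired permutation test, p = 0.25, adjusted p = 0.42). GFP went the other way, with 16.2%, 14.6% and 16.7% of the footprints against 24.6%, 24.7% and 25.2% of the RNA. The footprint share of GFP was 1.57-fold lower, a log2 ratio of -0.65 (SE 0.052), lower in 3 of 3 pairs (exact paired permutation test, p = 0.25, adjusted p = 0.42).

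The recoded FLuc segment held close to the same share of both. It took 48.9%, 45.0% and 43.5% of the footprints and 46.3%, 46.4% and 44.9% of the RNA. The groups overlapped, the log2 ratio was -0.0043 (SE 0.042), and 1 of 3 pairs was higher (exact paired permutation test, p = 1). The sign of this small ratio changed with the set of libraries or alignments used, within -0.047 to 0.042. SM and GFP kept their direction under all 11 alternatives run for each, with log2 ratios of 0.33 to 0.45 and of -0.81 to -0.60.

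The mean position of an alignment summarises the shift. It was codon 526, 503 and 526 for footprints and codon 585, 588 and 584 for RNA. The footprint mean thus lay in the first part of FLuc and the RNA mean 66.7 codons (SE 8.88) after it, with 3 of 3 pairs in the same direction (exact paired permutation test, p = 0.25, adjusted p = 0.42). Without the first and last 40 codons the difference was -51.0 codons. Summed from the start codon, the mean footprint share ran furthest ahead of the RNA share at codon 360, just inside FLuc, where 42.1% of footprints and 31.9% of RNA had accumulated. The lead there was 7.67, 13.1 and 9.71 percentage points in pairs 1, 2 and 3. It did not grow steadily through SM. Its mean was 3.31 points at codon 40, 2.72 at codon 260 and 9.01 at codon 320. At codon 260 the lead was 1.05, 5.69 and 1.42 points in pairs 1, 2 and 3.

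**Figure D2:**
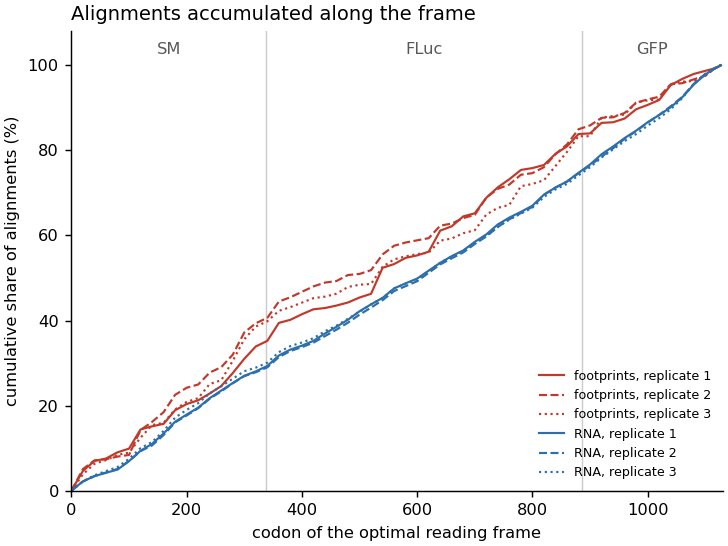
Cumulative share of alignments (%) against codon of the optimal frame for the 3 footprint and the 3 RNA libraries. Each footprint curve lies ahead of the RNA curve of the same number through SM and FLuc, and at codon 360 the means are 42.1% and 31.9%. The lead is small in parts of SM. At codon 240 footprint replicate 1 (22.85%) is just below RNA replicate 3 (22.89%).

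The start of the frame carried an excess of footprints. The first 40 codons held 6.99%, 7.13% and 6.32% of the footprints and 3.42%, 3.45% and 3.64% of the RNA. The groups did not overlap. The ratio was 1.94-fold, a log2 ratio of 0.96 (SE 0.081), higher in 3 of 3 pairs (exact paired permutation test, p = 0.25, adjusted p = 0.42). Its size moved with how the RNA-seq alignments were placed. With the transcript-strand mate alone the log2 ratio was 1.37, with pairs counted once 1.21 and with covered bases 1.13. The last 40 codons gave no such contrast, with 2.04%, 3.31% and 3.68% of the footprints and 3.48%, 3.33% and 3.26% of the RNA. Replicate 1 was low and the other two were level with RNA, for a log2 ratio of -0.20 (SE 0.29; exact paired permutation test, p = 0.75), which became 0.084 without replicate 1.

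**Figure D3:**
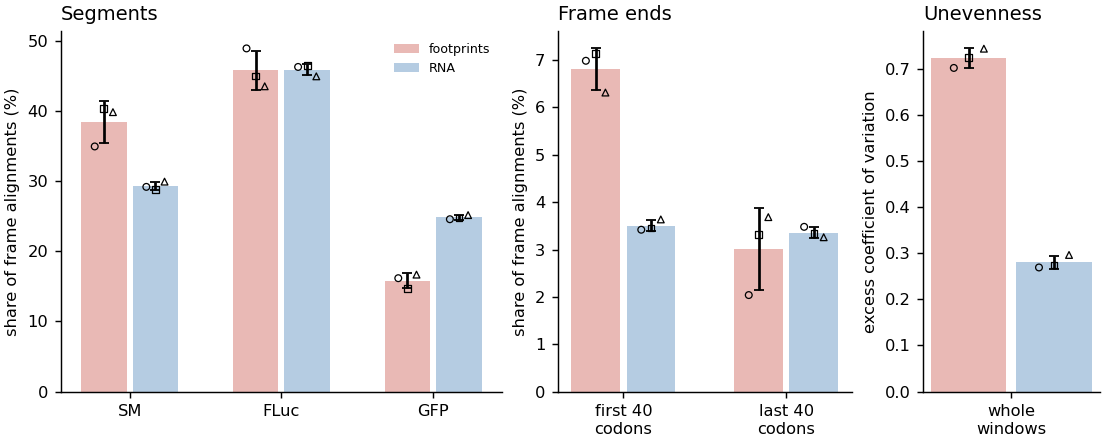
Share of frame alignments (%) in SM, FLuc and GFP and in the first and last 40 codons, and unevenness over whole windows, for footprints and RNA of the optimal reporter. Bars are means, error bars SD and symbols the 3 replicates, and the symbols of the 2 assays overlap in FLuc and in the last 40 codons.

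Single windows were tested with limma on log2 shares of the pairs, with Benjamini-Hochberg adjustment over all 57 windows. The footprint share was higher than the RNA share in 13 windows (22.8%) and lower in 22 (38.6%), so 61.4% of the windows passed an adjusted p of 0.05. Groups did not overlap in 41 windows (71.9%). Within SM 6 of 16 windows rose and 3 fell, within FLuc 6 of 27 rose and 11 fell, and within GFP 1 of 12 rose and 7 fell. The median log2 ratio was 0.17 in SM, -0.47 in FLuc and -1.31 in GFP, against -0.17 over all windows. The split depends on the scale, since a few full windows lower the share of all others. With each library centred on its median window, all ratios rose by 0.44, and 18 windows were higher and 15 lower, of which 6 and 1 lay in SM, 9 and 7 in FLuc and 3 and 6 in GFP. All 13 higher calls remained, which a rise of all ratios favours, and so did 15 of the 22 lower calls. Leaving out a pair lowered the number of higher calls to 7 without pair 1, 4 without pair 2 and 6 without pair 3.

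**Figure D4:**
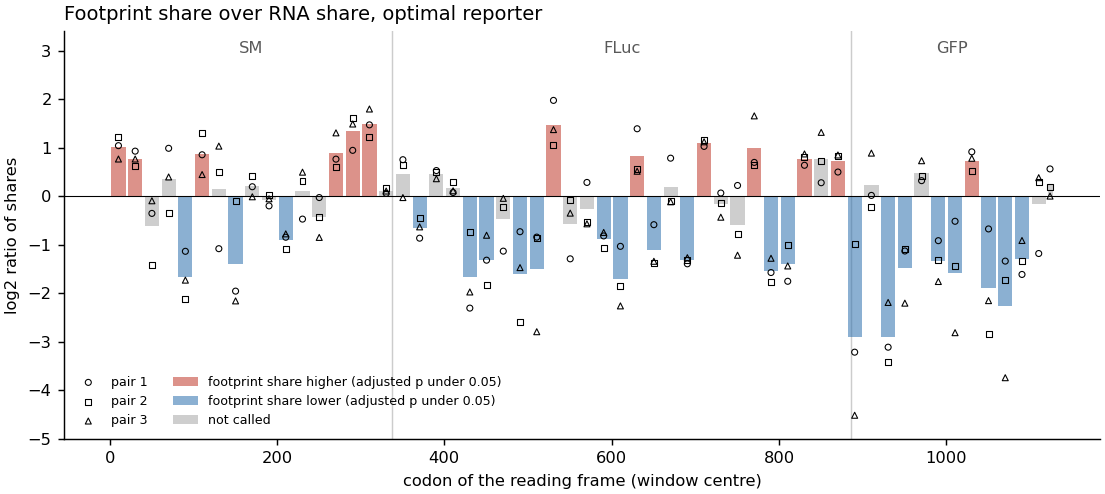
Log2 ratio of footprint share to RNA share in each window along the frame, with bars for the mean of 3 pairs, symbols for the pairs and colour for the limma call. Higher windows include the first 2 of SM and 3 in a row near its end and stand as single peaks in FLuc, and GFP holds 1 higher and 7 lower windows.

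In SM, 3 windows next to each other at its end, codons 261 to 320, all passed. Codons 301 to 320, at positions 3527 to 3586 of the map, held 2.91%, 2.17% and 2.98% of footprints and 1.03%, 0.928% and 0.840% of RNA. All 3 footprint values were above all RNA values, a 2.81-fold difference (log2 1.49, SE 0.22, limma adjusted p = 0.013). Codons 281 to 300 held 3.35%, 5.22% and 5.09% of footprints and 1.71%, 1.67% and 1.76% of RNA, a 2.54-fold difference (log2 1.35, SE 0.23, limma adjusted p = 0.013), which was 1.98 on the log2 scale with the transcript-strand mate. Here 1 codon held most of the footprints: codon 284, at positions 3476 to 3478, carried 14 of the 23 footprints of its window in replicate 1, 22 of 41 in replicate 2 and 17 of 28 in replicate 3. It was the fullest codon of the frame, with 2.61% ± 0.502 (SD, n = 3) of all footprints.

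The opening window of SM, codons 1 to 20 at positions 2627 to 2686, held 4.66%, 5.10% and 3.86% of footprints and 2.21%, 2.14% and 2.21% of RNA. It was 2.01-fold higher in footprints (log2 1.01, SE 0.21, limma adjusted p = 0.018), and without pair 2 the log2 ratio was 0.90 with an adjusted p of 0.11. Within it the fullest codon was codon 7, with 7, 13 and 3 footprints, and not the start codon. Codons 101 to 120, the fullest window of all, held 4.51%, 5.86% and 3.51% of footprints and 2.44%, 2.31% and 2.52% of RNA, and passed as higher (log2 0.87, SE 0.25, limma adjusted p = 0.032). Its codon 105, at positions 2939 to 2941, carried 16 and 19 footprints in replicates 1 and 2 but 1 in replicate 3, which gave it the largest SD among the 5 fullest codons. Codon 275, at positions 3449 to 3451, was among those 5 with 5, 9 and 9 footprints.

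FLuc combined sharp peaks with broad low stretches. The highest FLuc window was codons 521 to 540, at positions 4187 to 4246, with 6.11%, 3.69% and 4.04% of footprints against 1.51%, 1.74% and 1.52% of RNA. Replicate 1 was the highest, and all 3 stood above RNA, a 2.77-fold difference (log2 1.47, SE 0.26, limma adjusted p = 0.013). A pair of neighbouring codons made the peak: codon 525 carried 20, 9 and 10 footprints and codon 526 carried 14, 13 and 10. Together with codon 284 they were the 3 fullest codons of the frame. Codons 701 to 720 held 3.64%, 4.08% and 3.68% of footprints against 1.75%, 1.78% and 1.65% of RNA (log2 1.11, SE 0.19, limma adjusted p = 0.013), and without pair 2 the log2 ratio was 1.07 with an adjusted p of 0.055. Codons 761 to 780 held 2.18%, 2.29% and 4.39% against 1.34%, 1.46% and 1.35% (log2 0.996, SE 0.28, limma adjusted p = 0.032). Replicate 3 was the highest there, and the call was lost without pair 1 (log2 1.15, limma adjusted p = 0.068) and without pair 3 (log2 0.67, limma adjusted p = 0.18).

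FLuc also held low windows. Codons 601 to 620, at positions 4427 to 4486, held 6, 4 and 2 footprints, or 0.873%, 0.510% and 0.351%, against 1.86%, 1.99% and 2.0% of RNA. The footprint share was 3.28-fold lower (log2 -1.71, SE 0.30, limma adjusted p = 0.013). The log2 ratio was -1.003 with footprints placed 12 nt after the 5′ end and -0.96 with covered bases, and both passed. Codons 421 to 440, at positions 3887 to 3946, held 2, 7 and 2 footprints, or 0.291%, 0.892% and 0.351%, against 1.73%, 1.53% and 1.64% of RNA (log2 -1.67, SE 0.36, limma adjusted p = 0.019), and without pair 1 the log2 ratio was -1.35 with an adjusted p of 0.068. Next to the low codons 601 to 620 stood codons 621 to 640, which passed as higher, with 4.95%, 2.93% and 2.81% of footprints against 1.84%, 1.96% and 1.93% of RNA (log2 0.82, SE 0.26, limma adjusted p = 0.043). With footprints spread over 151 nt, the windows at codons 601 to 620, 701 to 720 and 761 to 780 no longer passed (limma log2 -0.22, 0.23 and 0.14, adjusted p = 0.35, 0.28 and 0.54). Those at codons 281 to 300, 301 to 320 and 521 to 540 still did, with log2 ratios of 1.26, 1.04 and 0.49, and so did codons 421 to 440 with -0.90. Under this setting limma called 10 windows higher and 20 lower over the whole frame, of which 7 and 12 were among the 13 and 22 calls above.

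GFP held the lowest ratios. At codons 921 to 940, positions 5387 to 5446, there were 1, 1 and 2 footprints, or 0.146%, 0.127% and 0.351%, against 1.81%, 1.97% and 1.91% of RNA. Every footprint value was below every RNA value. Pooled over the libraries, 4 of 2042 footprints and 1696 of 89428 RNA alignments lay there, a ratio of 0.103 with an exact 95% interval of 0.0281 to 0.265 that covers counting error only. The limma log2 ratio was -2.91 (SE 0.30, adjusted p = 0.011), and this window passed under all 16 alternatives that could be run on it, within -3.27 to -0.82. Codons 1061 to 1080, at positions 5807 to 5866, where RNA was at its highest, held 8, 7 and 1 footprints, or 1.16%, 0.892% and 0.175%, against 3.0%, 3.06% and 3.36% of RNA (log2 -2.27, SE 0.51, limma adjusted p = 0.020). This log2 ratio was -1.53 without pair 3 and -3.10 with footprints placed 12 nt after the 5′ end. The neighbouring codons 1041 to 1060 held 10, 2 and 3 footprints, or 1.46%, 0.255% and 0.526%, against 2.34%, 2.20% and 2.6% (log2 -1.89, SE 0.45, limma adjusted p = 0.021), and without pair 1 the log2 ratio was -2.50. The only higher window of GFP, codons 1021 to 1040, held 3.49%, 2.93% and 3.68% of footprints against 1.82%, 2.03% and 2.09% of RNA (log2 0.74, SE 0.21, limma adjusted p = 0.032).

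The segment boundaries behaved unlike each other. The window over the end of SM and the start of FLuc, codons 321 to 340, held 1.31%, 1.27% and 1.23% of footprints and 1.28%, 1.15% and 1.16% of RNA. The groups overlapped and the log2 ratio was 0.11 (SE 0.19, limma adjusted p = 0.64). With footprints spread over 151 nt this window did pass as higher (limma log2 0.70, adjusted p = 0.0017). The window over the end of FLuc and the start of GFP, codons 881 to 900, held 1, 7 and 0 footprints against 1.95%, 1.83% and 1.91% of RNA (limma log2 -2.91, SE 0.68, adjusted p = 0.021). Pooled, its ratio was 0.207 with an exact 95% interval of 0.0891 to 0.408. The size of this ratio was unsteady: the log2 ratio was -2.75 without pair 1 (limma adjusted p = 0.091), -3.87 without pair 2 and -2.10 without pair 3, -1.62 with all Ribo-seq alignments, -1.91 with covered bases and 0.020 with footprints spread over 151 nt. With a pseudocount of 0.1 it was -3.81 and with one of 2 it was -1.99. The window before it, codons 861 to 880, was among the higher ones and held 2.91%, 3.57% and 3.68% of footprints against 2.03%, 1.97% and 1.99% of RNA (log2 0.73, SE 0.20, limma adjusted p = 0.032). The last whole window of the frame, codons 1101 to 1120, had a log2 ratio of -0.17 (SE 0.37, limma adjusted p = 0.71), with 5, 16 and 12 footprints. With footprints spread over 151 nt it passed as lower (limma log2 -0.71, adjusted p = 0.0033).

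To see where the optimal reporter differed, the footprint to RNA ratio of each window was set against that of the nonoptimal reporter, matched by codon number. The nonoptimal frame held 823, 1346 and 285 footprints, so its replicate 3 is the thinnest. No segment difference passed its test: the log2 ratio of SM was 0.39 in the optimal and 0.27 in the nonoptimal pairs, that of FLuc -0.0043 and 0.0040, and that of GFP -0.65 and -0.53. The differences were 0.11 (SE 0.075), -0.0083 (SE 0.050) and -0.12 (SE 0.065), with p of 0.2, 1 and 0.3 in exact permutation tests of 3 against 3 pairs, two-sided, which cannot go below 0.1. Single windows passed in FLuc. With limma, 3 of 57 windows (5.26%) had a higher ratio in the optimal reporter and 2 (3.51%) a lower one, 8.77% in all, and the 5 lay within FLuc.

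Codons 621 to 640 held 34, 23 and 16 footprints in the optimal and 2, 3 and 2 in the nonoptimal libraries, and the log2 ratio of footprint to RNA share was 0.82 and -1.76, a difference of 2.59 (SE 0.53, limma adjusted p = 0.030). Codons 481 to 500 went the other way, with 8, 2 and 3 footprints in the optimal and 37, 57 and 12 in the nonoptimal libraries, log2 ratios of -1.60 and 1.42 and a difference of -3.02 (SE 0.49, limma adjusted p = 0.014). The other higher windows were codons 561 to 580, with a difference of 1.98 (SE 0.50, limma adjusted p = 0.042), and codons 861 to 880, with 1.43 (SE 0.33, limma adjusted p = 0.033). Codons 561 to 580 held 10, 6 and 4 footprints in the optimal and 1, 6 and 1 in the nonoptimal libraries. The log2 ratios there were -0.27 and -2.25, and the optimal one was not called against RNA. Codons 861 to 880 held 20, 28 and 21 against 6, 10 and 2, with log2 ratios of 0.73 and -0.71. The other lower one was codons 581 to 600, with -1.39 (SE 0.32, limma adjusted p = 0.033). It held 4, 4 and 3 footprints in the optimal and 12, 23 and 5 in the nonoptimal libraries, with log2 ratios of -0.88 and 0.51. These calls need all 3 pairs: without pair 3 of both reporters limma called 1 window, and without pair 1 or pair 2 it called 0, with 12 and 10 windows at an unadjusted p under 0.05. The 5 windows kept their direction in each case, but the difference at codons 561 to 580 was 1.22 without pair 1 and that at codons 621 to 640 was 3.28 without pair 3. Of the 5, only codons 861 to 880 held a mean of at least 5 footprints in both reporters. Among windows that did, this one still passed, with 1.37 (limma adjusted p = 0.041). The others fell below that mean in 1 reporter.

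As a description, the mean log2 ratios of the reporters correlated with r = 0.86 over the 16 whole windows of SM and r = 0.89 over the 11 of GFP, which carry the same names in both, and with r = 0.24 over the 27 of the recoded FLuc. Windows of a segment are not independent, and the RNA profiles behave alike: between reporters the median r of RNA shares was 0.94 in SM, 0.78 in GFP and 0.39 in FLuc. Within the optimal reporter the ratio recurred between pairs in all 3 segments, with a median r of 0.73 in SM, 0.75 in FLuc and 0.74 in GFP.

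**Figure D5:**
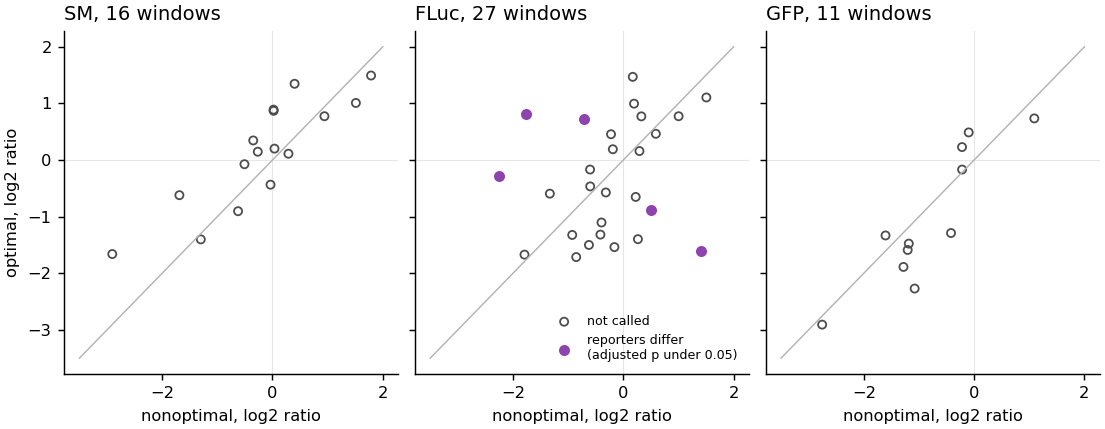
Mean log2 ratio of footprint to RNA share of each whole window in the optimal (vertical) against the nonoptimal reporter (horizontal), by segment, with the line of equality; filled points are windows whose ratio differs between the reporters by limma. Points follow the line in SM and GFP, with r of 0.86 and 0.89, and scatter in FLuc, with r of 0.24, where the 5 filled points lie.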

How the data were processed

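The authors deposited, for each library, alignments to the plasmid maps, and a region list of those maps, so the values used are positions (start, end and strand), with no other unit. The submitters' processing notes name UMI-tools, Bowtie 1.2.2, SAMtools 1.12, STAR 2.6.0a, Salmon 1.6.0 and bedtools. What each did, the trimming, and how reads from repeated sequence were treated are not given in the sources used here. An alignment spans 1 line or more and was counted once. Plasmid sequences and host alignments were not analysed here.

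Alignments were placed in windows of 20 codons by midpoint. Shares carried a pseudocount of 0.5 alignments per window on the log2 scale, which shrinks the log2 ratios of low windows compared with a smaller one. Against pooled ratios, the mean of 3 pairs went either way among the 6 lowest windows. The ratio was 0.133 by limma and 0.207 pooled at codons 881 to 900, and 0.133 and 0.103 at codons 921 to 940. Pair differences were fitted in limma 3.58.1 (R 4.3.3, Python 3.11.15). The series' design text states paired RNA-seq, so libraries of the same number were paired, although their deviations from the group means correlated with r of -0.21, -0.071 and -0.074 over 57 windows. Single values had exact permutation tests. No count model was fitted. The fits were also run on simulated counts with known changed windows. Far fewer windows were changed there than were called here, so that run does not vouch for these calls.

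Windows named were the 6 highest and 6 lowest among those with the same direction in 3 pairs, the first and last whole window and the boundary windows, with the 5 fullest codons and the windows that differed between reporters. Neighbours of named windows, the fullest window and the only higher GFP window were added after their values were seen. Members, windows and tests were chosen with earlier results of these data known. In chi-square tests over 57 windows, footprint replicates 2 and 3 differed no more than counting allows, but their alignment lengths and positions on all maps did. They shared 0 read names, as did every pair of replicates, which cannot tell separate cultures from parts of 1 culture. The libraries were counted as 3 samples because the labels number them so, and whether they came from separate cultures was not tested.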

Additional observations from a re-analysis of the deposited data

Results flagged for a closer look

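The footprint to RNA ratio of 5 FLuc windows differed between the optimal and the nonoptimal reporter in limma's test of the difference itself, with log2 differences of 1.98 at codons 561 to 580, 2.59 at codons 621 to 640 and 1.43 at codons 861 to 880, and of -3.02 at codons 481 to 500 and -1.39 at codons 581 to 600. Only codons 861 to 880 held a mean of at least 5 footprints in both reporters. The codons of FLuc differ between the reporters, and the RNA profile of FLuc differs too, with a median r of 0.39 between them.

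Ribo-seq alignments that were antisense or outside 27 to 30 nt were not used. They numbered 184, 375 and 307 on the optimal frame in replicates 1, 2 and 3, above the 3 counts that a count of 0 allows. Between 121 and 345 were sense and shorter than 27 nt, 4 to 11 sense and longer than 30 nt, and 23 to 59 antisense. SM held 39.5% ± 2.37 (SD, n = 3) of them, FLuc 49.9% ± 3.29 (SD, n = 3) and GFP 10.6% ± 1.24 (SD, n = 3). Their unevenness of 1.04 ± 0.233 (SD, n = 3) was above that of RNA in each library. The antisense alignments alone lay 31.1% ± 7.73 (SD, n = 3) in SM, 47.0% ± 10.8 (SD, n = 3) in FLuc and 22.0% ± 5.17 (SD, n = 3) in GFP. Unevenness of the antisense alignments was 0.121, 0 and 0.245 in replicates 1, 2 and 3, where 0 is the lowest value the measure can take. These values rest on 59, 23 and 33 alignments, too few to rank them against RNA.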

How the results depend on the processing

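Footprint counts limit these results, since a window held between 0 and 46 of them per library of the optimal reporter. Of the recomputed values, 85 single values kept their direction and 8 did not, and 38 shares of windows called stayed within 1.5 times and 20 did not. Among values of named windows, 213 kept direction and call, 11 lost the call, 2 gained it and 6 changed sign. For the windows that differed between reporters, 22 values kept direction and call and 14 lost the call. The higher windows of the optimal reporter (22.8%) fell to between 7.02% and 12.3% with a pair left out, to 14.2% with windows of 10 codons, 13.8% with windows of 40 codons and 11.6% of windows with a mean of at least 5 footprints. That last setting left out none of the 13 higher windows. It took shares over the 43 windows that remained, which lowered every log2 ratio alike, as at codons 1 to 20 from 1.01 to 0.78. The lower windows (38.6%) came to 20.7% with windows of 40 codons, 24.6% with windows shifted by 10 codons and 20.9% with at least 5 footprints, and the calls with a pair left out ranged from 28.1% to 29.8%. Windows higher in the optimal than in the nonoptimal reporter (5.26%) came to 0% to 1.75% with a pair left out, 0% with windows of 40 codons and 2.50% with at least 5 footprints. Those lower (3.51%) came to 0% with any pair left out and 7.02% with a pseudocount of 2.

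Without the replicate block, that is with the pairing by number ignored, 16 windows were higher (28.1%) and 21 lower (36.8%) in the optimal reporter, including 13 and 21 of the paired calls. Between reporters, 5 windows were higher (8.77%) and 4 lower (7.02%).

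Some small values changed sign. The FLuc share ratio was 0.042 with all Ribo-seq alignments, 0.0097 with covered bases and 0.042 without the first and last 40 codons, and ranged from -0.047 to 0.017 with a pair left out. The last 40 codons ranged from -0.39 to 0.084 with a pair left out. The optimal minus nonoptimal FLuc ratio was 0.11 with all Ribo-seq alignments and -0.032 to 0.021 with a pair left out. The window at codons 321 to 340 was -0.11 with at least 5 footprints per window and -0.40 with the transcript-strand mate, that at codons 881 to 900 was 0.020 with footprints spread over 151 nt, and that at codons 1101 to 1120 ranged from -0.44 to 0.34 with a pair left out and was 0.20 with pairs counted once and 0.27 with centring, an alternative chosen after seeing the data. The setting with at least 5 footprints per window lowers every ratio alike, because shares are then taken over fewer windows. Beyond that and what leaving out pairs shows, the cause was not tested.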
